A study of Mus musculus with 6 samples.

Results

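The genes described here are 9 genes of the urea cycle and its nitrogen supply that were looked up by symbol in the liver RNA-Seq: *Cps1*, *Otc*, *Ass1*, *Asl*, *Nags*, *Slc25a15*, *Slc25a13*, *Got1* and *Gpt*. All 9 were found and passed the filter on low values, among 21528 genes listed in any library and 12225 genes tested. There were 3 liver libraries of wild-type (WT) mice and 3 of mice carrying the trim24 C52/55A knockin (TRIM24-C52/55A), in which cysteines 52 and 55 of the E3 ubiquitin ligase TRIM24 are replaced by alanine in the endogenous gene. Every mouse was of the C57BL/6 strain by the labels (the C57Bl/6J background in the methods of the study), 5 months old, and had eaten a high-fat diet with 60% fat for 3 months, so the controls share the diet and no liver on a standard diet was analysed here. The knockin is in the germ line and present in every cell type of the liver, homozygous mice were compared with WT littermates according to the methods of the study, and the labels give no sex. The labels call the libraries of a group replicates without saying that each came from a separate mouse. They are called livers below, and p-values measure only the spread between them, which may be technical.

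The urea cycle turns the ammonia released by amino acid breakdown into urea and, in mammals, runs in full in hepatocytes, mostly those around the portal vein. Its first steps lie in the mitochondrion, where carbamoyl phosphate synthetase (*Cps1*), switched on by the N-acetylglutamate that *Nags* makes, fixes ammonia, and ornithine transcarbamylase (*Otc*) joins the product to ornithine to give citrulline. The later steps lie in the cytosol, where argininosuccinate synthetase (*Ass1*) adds aspartate and argininosuccinate lyase (*Asl*) releases arginine, the precursor of urea. The carriers *Slc25a15* (ornithine and citrulline) and *Slc25a13* (citrin, aspartate and glutamate) link both compartments, and the cytosolic aminotransferases *Got1* (aspartate) and *Gpt* (alanine) move nitrogen between amino acids. Hepatocytes around the central vein instead trap leftover ammonia as glutamine.

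Values are FPKM, the fragments of a gene scaled to the length of the transcript and the size of the library, as the authors deposited them. Total FPKM was 644619 to 648221 in WT libraries and 673244 to 676791 in TRIM24-C52/55A libraries, and the steps between the lowest values put relative depth at 0.963 to 1.03 times that of WT replicate 1. *Trim24* itself had 4.85 to 5.96 FPKM in WT and 4.31 to 8.46 FPKM in TRIM24-C52/55A livers; since the knockin changes codons only, this level does not check the genotype. Genes were tested as log2(FPKM + 1) with limma over every gene whose mean reached 0.5 FPKM, with Benjamini-Hochberg adjustment and a threshold of 0.05, and a log2 fold change is TRIM24-C52/55A minus WT on that scale. Of all genes tested, 7.72% were called, 200 higher and 744 lower, and the median log2 fold change was -0.08. The split depended on library scaling, with 250 higher and 405 lower after median-of-ratios scaling, 255 higher and 378 lower after quantile normalization, and 193 higher and 1359 lower with TPM. TRIM24-C52/55A replicate 2 stood apart in fat cell transcripts: *Adipoq*, *Plin1* and *Lep* had 4.55, 3.32 and 3.98 FPKM there and no more than 0.127 FPKM in the remaining 5 libraries. No gene of the urea cycle group gained or lost a call without that library, and counts of the other lists without it are given where they changed.

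Only *Cps1* of the 9 genes was called, and it was higher in the TRIM24-C52/55A liver. The other 8 genes had log2 fold changes between -0.60 and about 0, against 65.5% of all genes tested with a value below 0, and none of them passed the threshold by limma. After median-of-ratios scaling 5 of the 9 genes were below 0, and after quantile normalization 6. The share called, 1 of 9, stands beside 7.72% of all genes, and 1.64% of all genes were called higher. At an unadjusted p under 0.05 there were 4 of 9 (*Cps1*, *Asl*, *Slc25a13* and *Got1*), beside 23.6% of all genes. That count was not stable, with 1 of 9 after median-of-ratios scaling (20.4% of all genes), after quantile normalization (19.8%), without WT replicate 3 (17.2%) and, in the other group, without replicate 2 (28.6%), and 5 of 9 with TPM (28.9%) and without TRIM24-C52/55A replicate 3 (21.6%). The median log2 fold change of the 9 genes was -0.19. In bulk liver, fewer cells of a type and less RNA per cell cannot be told apart.

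**Figure D1:**
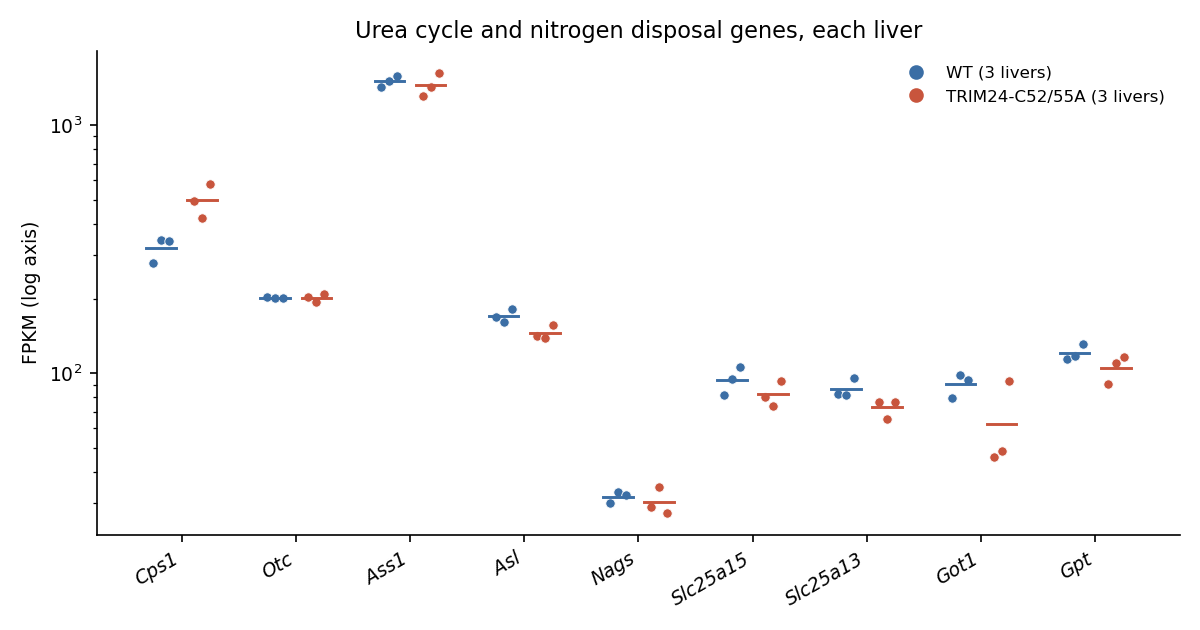
FPKM (log axis) of the 9 genes in each of 3 WT (blue) and 3 TRIM24-C52/55A (red) livers; points are livers and bars are group means. *Cps1* separates upward, *Otc* is level, and *Got1* is low in 2 of 3 TRIM24-C52/55A livers.

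*Cps1* (ENSMUSG00000025991, GRCm38 chromosome 1, 67123026 to 67231259, + strand), the gate through which free ammonia enters the cycle, had 278, 344 and 340 FPKM in the 3 WT livers, listed here and throughout in the order of their replicate numbers, and 495, 421 and 577 FPKM in the 3 knockin (TRIM24-C52/55A) livers. Every TRIM24-C52/55A liver was above every WT liver, the lowest of the former being replicate 2 and the lowest of the latter replicate 1. The means were 321 ± 37.1 and 498 ± 78.0 FPKM (SD, n = 3 each), a ratio of 1.55. The log2 fold change was 0.63 ± 0.13 (SE, 95% interval 0.32 to 0.93, limma adjusted p = 0.0281). By an exact two-sided permutation test the p was 0.1, the smallest that 3 against 3 allow. The call depended on single libraries: adjusted p was 0.0942, 0.0581 and 0.0724 from limma without WT replicates 1, 2 and 3, 0.0988 and 0.0531 without TRIM24-C52/55A replicates 1 and 3, and 0.0156 without TRIM24-C52/55A replicate 2, while the log2 fold change stayed between 0.51 and 0.74. The share of all genes called by limma changed with the libraries too, and was 2.55, 3.88 and 2.46% without WT replicates 1, 2 and 3 and 2.4, 10.5 and 6.42% without TRIM24-C52/55A replicates 1, 2 and 3. With all 6 libraries, *Cps1* was called in 8 of 9 other settings, where the share of all genes called was 7.57% with a pseudocount of 0.1, 8.79% with a filter at a mean of 1 FPKM, 12.7% with TPM, 5.36% with median-of-ratios scaling, 5.18% with quantile normalization, 6.36% without a variance trend, 11.1% with array weights and 4.73% with the replicate number as a block. It was not called with no filter on low values (adjusted p = 0.0851 by limma), where 1.61% of all genes were.

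*Nags* (ENSMUSG00000048217, chromosome 11, 102145513 to 102149477, + strand), which makes the activator that CPS1 protein needs, did not follow *Cps1*. It had 30.1, 33.1 and 32.2 FPKM in WT and 29.0, 34.9 and 27.4 FPKM in TRIM24-C52/55A livers, with overlapping groups and a log2 fold change of -0.07 (interval -0.30 to 0.17). An antisense gene, *Gm11586*, overlaps *Nags*, and the sources used here do not say whether counting used strand. *Otc* (ENSMUSG00000031173, X chromosome, 10252305 to 10321024, + strand), the next enzyme, had 203, 201 and 202 FPKM in WT and 203, 193 and 209 FPKM in TRIM24-C52/55A livers. *Otc* was the steadiest of the 9 genes, with an SD of 0.564% of the mean in WT, a ratio of means of 0.998 and an interval of the log2 fold change from -0.16 to 0.15.

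Neither cytosolic enzyme described here was called. *Ass1* (ENSMUSG00000076441, chromosome 2, 31470207 to 31520672, + strand), the most abundant transcript of the group, had 1430, 1509 and 1575 FPKM in WT and 1311, 1418 and 1625 FPKM in TRIM24-C52/55A livers. Its groups overlapped, with the highest and the lowest value both in TRIM24-C52/55A livers, and the log2 fold change was -0.06 (interval -0.28 to 0.17), turning to 0.05 after median-of-ratios scaling. *Asl* (ENSMUSG00000025533, chromosome 5, 130011258 to 130029247, - strand) had 169, 161 and 182 FPKM in WT and 141, 139 and 157 FPKM in TRIM24-C52/55A livers. All 3 TRIM24-C52/55A values of *Asl* were under all 3 WT values, by a small margin, and the log2 fold change of -0.23 ± 0.08 (SE) had an adjusted p of 0.134 from limma.

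Both mitochondrial carriers had lower means in the TRIM24-C52/55A liver without a call. *Slc25a13* (ENSMUSG00000015112, chromosome 6, 6041218 to 6217173, - strand) had 82.7, 81.8 and 95.7 FPKM in WT and 76.4, 65.7 and 76.6 FPKM in TRIM24-C52/55A livers, with no overlap and a log2 fold change of -0.25 ± 0.10 (SE, limma adjusted p = 0.167). *Slc25a15* (ENSMUSG00000031482, chromosome 8, 22375551 to 22398597, - strand) had 81.7, 95.1 and 106 FPKM in WT and 80.5, 73.9 and 93.4 FPKM in TRIM24-C52/55A livers, which overlapped, with a log2 fold change of -0.19 (interval -0.46 to 0.09). In all, the groups did not overlap for 3 of the 9 genes, *Cps1* above and *Asl* and *Slc25a13* below, beside 28.9% of all genes tested (6.31% above and 22.5% below).

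The aminotransferases differed in their spread. *Got1* (ENSMUSG00000025190, chromosome 19, 43499752 to 43524605, - strand) had 79.5, 98.3 and 93.7 FPKM in WT and 45.9, 48.7 and 92.9 FPKM in TRIM24-C52/55A livers. TRIM24-C52/55A replicates 1 and 2 were under every WT liver, while replicate 3 lay within the WT range, so that the SD was 42.2% of the mean in this group and 10.9% in WT. The log2 fold change was -0.60 ± 0.24 (SE, interval -1.15 to -0.04, limma adjusted p = 0.182). Without TRIM24-C52/55A replicate 3 it was -0.92 (limma adjusted p = 0.00444), and in that setting *Got1*, not *Cps1*, was the gene called. *Gpt* (ENSMUSG00000022546, chromosome 15, 76695716 to 76699686, + strand) had 114, 117 and 131 FPKM in WT and 90.5, 110 and 116 FPKM in TRIM24-C52/55A livers, with 1 TRIM24-C52/55A value inside the WT range and a log2 fold change of -0.20 (interval -0.45 to 0.05).

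**Figure D2:**
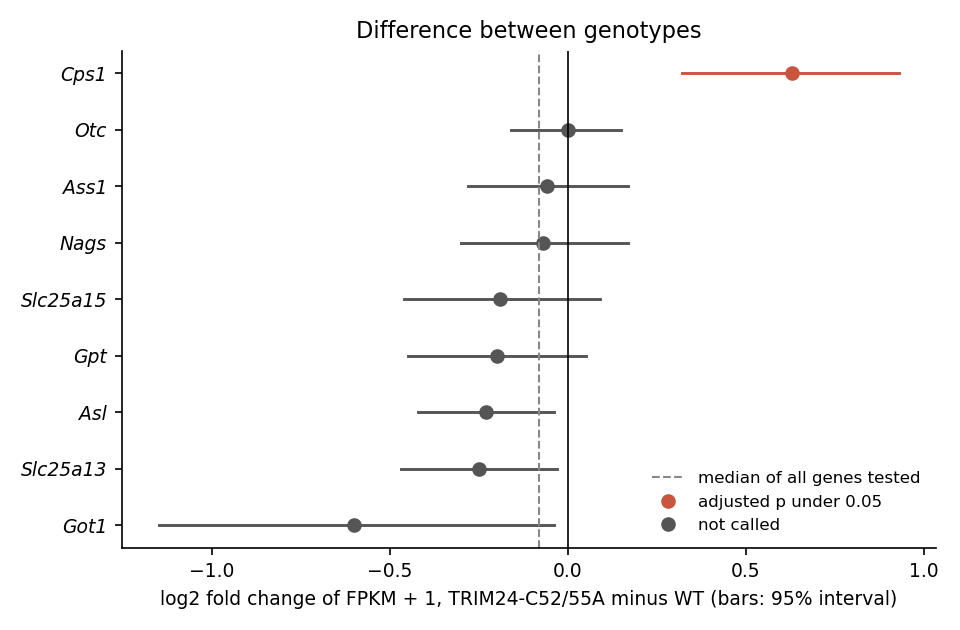
Log2 fold change of each gene on the log2(FPKM + 1) scale, TRIM24-C52/55A minus WT, with its 95% interval from limma; red marks an adjusted p under 0.05 and the dashed line is the median of all genes tested, -0.08. *Cps1* is at 0.63 with an interval from 0.32 to 0.93, and *Got1* has the widest interval, from -1.15 to -0.04.

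The bases before the start sites of *Got1* and *Slc25a13* are shown because these were the only genes, among those with a window, that matched any motif searched, and because *Got1* varied most between TRIM24-C52/55A livers. RefSeq promoter windows (GRCm38.p6) were at hand for 6 of the 9 genes, *Otc*, *Ass1*, *Nags*, *Slc25a15*, *Slc25a13* and *Got1*. In the 250 bases before the start site, on both strands, TTGCNNAA (C/EBP) was found in 9.56%, CAAAGTNCA (HNF4) in 1.19% and CCAAT (the CCAAT box) in 33.8% of all 32851 windows. Neither of the former was found for the 6 genes, and CCAAT was found for *Got1* and *Slc25a13*. *Got1* held 5 matches, 1 on its own strand and 4 on the other, a number reached by 0.213% of all windows. The sequences run 5′ to 3′ on the gene's strand up to the base before the start site, chr19:43524606-43524855 for *Got1* and chr6:6217174-6217423 for *Slc25a13* (- strand each), with CCAAT and its reverse complement in capitals. A match is a run of letters and was not tested as a binding site.
Got1: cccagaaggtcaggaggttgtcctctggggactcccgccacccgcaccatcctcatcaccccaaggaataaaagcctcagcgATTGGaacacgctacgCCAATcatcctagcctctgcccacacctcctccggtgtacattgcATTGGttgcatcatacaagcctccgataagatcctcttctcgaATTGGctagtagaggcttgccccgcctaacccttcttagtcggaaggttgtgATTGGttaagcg
Slc25a13: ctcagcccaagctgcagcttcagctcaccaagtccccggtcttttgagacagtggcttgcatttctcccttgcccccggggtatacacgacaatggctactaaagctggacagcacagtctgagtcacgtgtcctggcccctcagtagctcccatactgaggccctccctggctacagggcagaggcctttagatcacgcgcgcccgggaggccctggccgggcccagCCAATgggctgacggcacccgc

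FPKM are per transcript length, so levels of different genes can be set side by side. In WT the order of mean FPKM was *Ass1* (1505), *Cps1* (321), *Otc* (202), *Asl* (171), *Gpt* (121), *Slc25a15* (94.2), *Got1* (90.5), *Slc25a13* (86.7) and *Nags* (31.8). Neighbours in that order did not overlap between livers, other than *Slc25a15* with *Got1* and *Got1* with *Slc25a13*. In the TRIM24-C52/55A liver the order was the same down to *Slc25a15*, with *Cps1* at 498 FPKM, but *Got1* (62.5) came after *Slc25a13* (72.9), which it overlapped. There *Gpt* with *Slc25a15* and *Slc25a15* with *Slc25a13* overlapped too. Among all genes listed, *Cps1* was in place 232 by mean FPKM in WT and place 145 in TRIM24-C52/55A livers, whereas *Ass1* was in places 72 and 73.

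Summed over the 9 genes, FPKM were 2469, 2642 and 2757 in WT and 2471, 2504 and 2975 in TRIM24-C52/55A livers, which overlapped. The total hid a change in its make-up, since *Cps1* took 11.3, 13.0 and 12.3% of it in WT and 20.0, 16.8 and 19.4% in TRIM24-C52/55A livers. *Ass1* took 57.9, 57.1 and 57.1% in WT and 53.0, 56.6 and 54.6% in TRIM24-C52/55A livers. Ratios within a library do not depend on a scaling factor per library (they can change with quantile normalization), and they were computed after the levels had been seen. The FPKM of *Cps1* divided by that of *Otc* was 1.37, 1.71 and 1.68 in WT and 2.44, 2.18 and 2.76 in TRIM24-C52/55A livers. Over *Ass1* it was 0.195, 0.228 and 0.216 in WT and 0.378, 0.297 and 0.355 in TRIM24-C52/55A livers. The ratio of *Cps1* to each of the other 8 genes was higher in every TRIM24-C52/55A liver than in every WT liver, with group means 1.55 times (*Otc*) to 2.41 times (*Got1*) as high (exact two-sided permutation test, p = 0.1 for each, the smallest possible). All 8 ratios share the same numerator and are not independent.

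**Figure D3:**
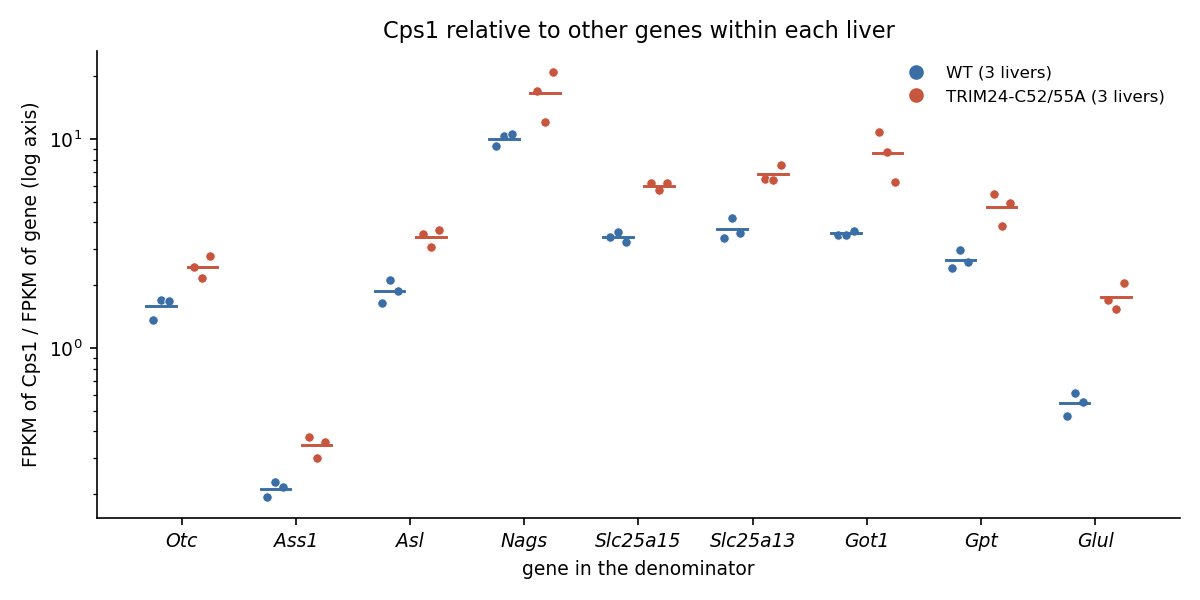
FPKM of *Cps1* divided by the FPKM of each other gene of the group, and of *Glul*, within each of 3 WT (blue) and 3 TRIM24-C52/55A (red) livers (log axis); bars are group means. For every denominator the 3 TRIM24-C52/55A points lie above the 3 WT points, from 1.55 times as high for *Otc* to 3.23 times for *Glul*.

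The genes whose pattern over the 6 libraries was most like that of *Cps1*, by root-mean-square distance of log2(FPKM + 1) centred on each gene's mean, were *Hsd17b6* (distance 0.0825), *Lama3* (0.101) and *Tgm1* (0.114). *Hsd17b6*, a hydroxysteroid dehydrogenase, had means of 55.7 and 91.4 FPKM in WT and TRIM24-C52/55A livers. *Lama3* and *Tgm1* were low, with WT means of 0.436 and 1.20 FPKM.

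Genes called in ammonia and glutamine handling were lower, unlike *Cps1*. Of 13 such genes tested, 4 were called and all 4 fell, beside 6.09% of all genes called lower, and the median log2 fold change was -0.22 (1 more gene, *Slc14a1*, was under the filter). *Glul*, the glutamine synthetase of pericentral hepatocytes, had 584, 563 and 616 FPKM in WT and 290, 274 and 282 FPKM in TRIM24-C52/55A livers. These groups lay far apart, and the log2 fold change was -1.06 ± 0.07 (SE, limma adjusted p = 0.000288), called in all 15 alternatives. *Slc1a2*, a glutamate transporter, fell from 31.1 ± 2.54 to 20.1 ± 1.19 FPKM (SD, n = 3 each; log2 fold change -0.60, limma adjusted p = 0.00853). *Rhbg*, an ammonium transporter, fell by 0.79 and *Car5a*, the mitochondrial carbonic anhydrase that supplies bicarbonate for CPS1, fell by 0.60 on the log2 scale. The calls of *Rhbg* and *Car5a* were lost in 9 and 7 of 15 alternatives, among them median-of-ratios and quantile scaling. The count of 4 fell to 3 without TRIM24-C52/55A replicate 2 and with the replicate number as a block, where *Rhbg* lost its call. It fell to 2 without TRIM24-C52/55A replicate 1 or any 1 of the WT libraries. With median-of-ratios scaling, quantile normalization or no filter on low values it was 2 as well, and with TPM it was 5. *Gls2*, the liver glutaminase found in periportal cells, had 125, 117 and 125 FPKM in WT and 111, 109 and 129 FPKM in TRIM24-C52/55A livers (log2 fold change -0.08, limma adjusted p = 0.652). *Glud1*, glutamate dehydrogenase, had 535 ± 19.4 and 460 ± 51.8 FPKM (SD, n = 3 each; log2 fold change -0.22, limma adjusted p = 0.205).

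Among paralogs and mitochondrial partners, 5 of 11 genes tested were called, and all 5 fell, beside 6.09% of all genes called lower. The largest change was in *Oat*, ornithine aminotransferase, a pericentral marker whose enzyme also uses ornithine. It had 330, 460 and 573 FPKM in WT and 136, 86.9 and 179 FPKM in TRIM24-C52/55A livers. Its log2 fold change was -1.78 ± 0.27 (SE, limma adjusted p = 0.00955), and the call was lost in 1 of 15 alternatives. *Gpt2*, the mitochondrial partner of *Gpt*, had 143, 126 and 128 FPKM in WT and 62.5, 76.6 and 98.7 FPKM in TRIM24-C52/55A livers, a log2 fold change of -0.76 (limma adjusted p = 0.0237). The ratio of *Gpt* to *Gpt2* was thus 0.799, 0.928 and 1.03 in WT and 1.45, 1.44 and 1.17 in TRIM24-C52/55A livers, without overlap (exact two-sided permutation test, p = 0.1, the smallest possible). *Got2*, the mitochondrial partner of *Got1*, had 318, 325 and 328 FPKM in WT and 226, 263 and 244 FPKM in TRIM24-C52/55A livers, a log2 fold change of -0.41 (limma adjusted p = 0.0215). Because *Got1* varied widely, the ratio of *Got1* to *Got2* overlapped between groups (exact two-sided permutation test, p = 0.8).

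*Mdh2*, the malate dehydrogenase of the mitochondrion, fell by 0.43 and *Sirt5*, a deacylase known to act on CPS1 protein, fell by 0.55 on the log2 scale. *Slc25a12*, the paralog of citrin in other tissues, was at 4.27 to 4.67 FPKM in WT and 3.41 to 4.64 FPKM in TRIM24-C52/55A livers, so citrin was 14.1 to 22.5 times as abundant in every liver. The calls of *Gpt2*, *Got2*, *Mdh2* and *Sirt5* were lost in 6, 6, 8 and 8 of 15 alternatives. The number of genes called in this list was 8 with TPM, 4 with median-of-ratios scaling, 1 with quantile normalization and 3 with the replicate number as a block. It was 0 with no filter on low values (limma, 9 of 13 at an unadjusted p under 0.05, beside 16.0% of all genes). It was 6 without TRIM24-C52/55A replicate 2, 3 without replicate 3 and 1 without replicate 1 of that group, and 1, 2 and 1 without WT replicates 1, 2 and 3.

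**Figure D4:**
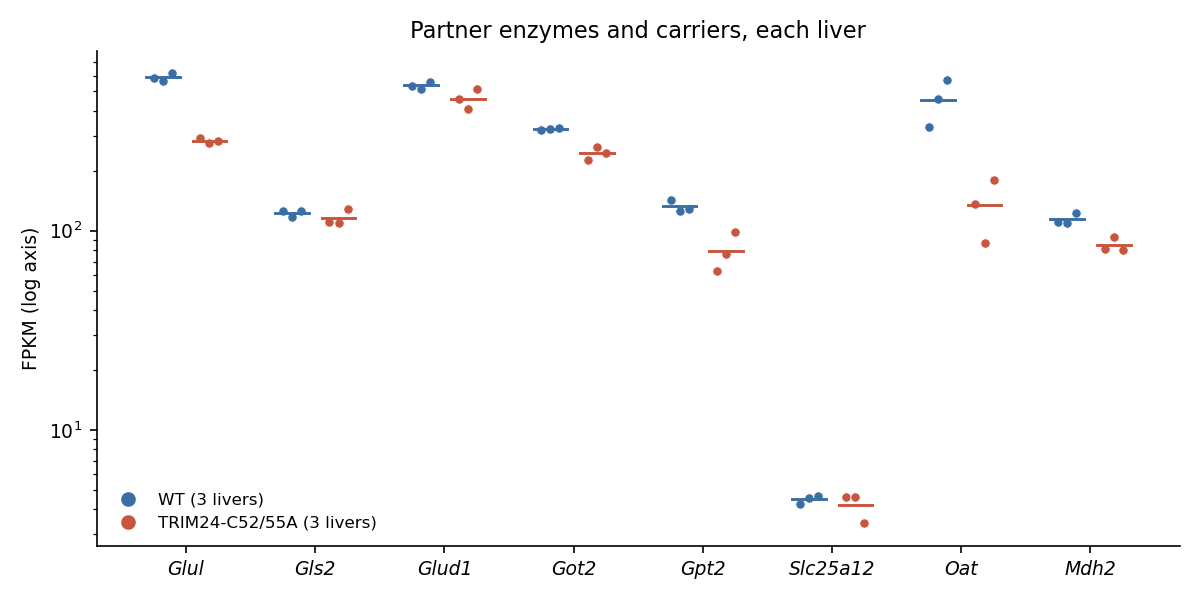
FPKM (log axis) of 8 partner enzymes and carriers in each of 3 WT (blue) and 3 TRIM24-C52/55A (red) livers, with group means as bars. *Glul*, *Got2*, *Gpt2*, *Oat* and *Mdh2* lie lower in every TRIM24-C52/55A liver, as does *Glud1*, which was not called, and *Gls2* and *Slc25a12* overlap.

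Of 44 genes tested in a list for amino acid breakdown, 7 were called, all of them lower, beside 6.09% of all genes called lower. The median log2 fold change was -0.24. The list was not limited to steps that release nitrogen, and it includes the asparagine synthetase. At an unadjusted p under 0.05 there were 28 of 44, beside 23.6% of all genes. The proline catabolic enzymes *Prodh* (log2 fold change -0.59) and *Aldh4a1* (-0.39) fell, as did *Prodh2* (-0.37), which acts on hydroxyproline. The others were *Bckdhb* (-0.54), a subunit of the branched-chain keto acid dehydrogenase, *Gcdh* (-0.48) of lysine breakdown, *Gldc* (-0.45) of glycine cleavage and *Gstz1* (-0.42) of tyrosine breakdown. *Hal*, the histidase of periportal cells, was one of 10 genes of the list with a positive value, and had 73.8, 84.8 and 84.0 FPKM in WT and 102, 136 and 101 FPKM in TRIM24-C52/55A livers (log2 fold change 0.47, limma adjusted p = 0.0612). With TPM 15 genes of this list were called lower, and with array weights 12 lower and 1 higher. Without a variance trend or with the replicate number as a block 5 were called, all lower, and *Prodh2* lost its call in both. With median-of-ratios scaling or quantile normalization, 2 were called higher and 2 lower, and the median was -0.14 and -0.09. The number called was 0 with no filter on low values and without WT replicate 1, WT replicate 3 or TRIM24-C52/55A replicate 1, 2 without WT replicate 2, 11 without TRIM24-C52/55A replicate 2 and 7 without TRIM24-C52/55A replicate 3, all of them lower.

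Of 12 regulators of these genes, 1 was called, a share of 8.33% near the 7.72% of all genes tested. *Cebpb*, a C/EBP transcription factor of the fasting and acute phase responses, had 27.7, 19.0 and 19.9 FPKM in WT and 7.33, 13.1 and 13.5 FPKM in TRIM24-C52/55A livers (log2 fold change -0.94, limma adjusted p = 0.0428), a call lost in 9 of 15 alternatives. Among the 11 not called were *Hnf4a*, *Cebpa*, the glucagon receptor *Gcgr* and the glucocorticoid receptor *Nr3c1*, with log2 fold changes of 0.04, -0.25, -0.26 and 0.01.

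**Figure D5:**
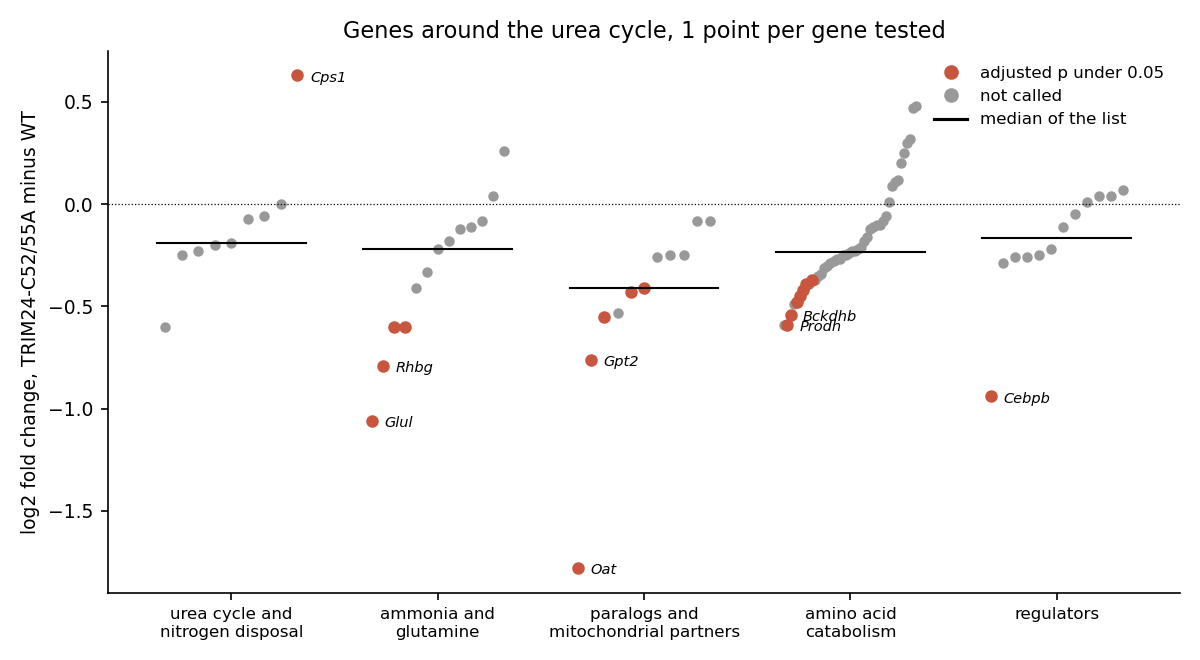
Log2 fold change (TRIM24-C52/55A minus WT) of each gene tested in the urea cycle group and 4 related lists, sorted within a list; red marks an adjusted p under 0.05 from limma and black bars are list medians, from -0.41 for paralogs and mitochondrial partners to -0.16 for regulators. *Cps1* is the red point above 0, and every other red point lies below 0.

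The files give for several of these genes an interval far longer than the GENCODE M21 gene, shared with neighbours: 2962 kb against 18.9 kb for *Oat* (with 38 other genes), 4435 kb against 28.8 kb for *Car5a* (with 106), 137 kb for *Cebpb* (with 5) and 60.2 kb against 9.78 kb for *Glul*. Fragments of neighbours could be included there. For 8 of the 9 urea cycle genes the interval was that of the annotation, and for *Gpt* it differed at the ends.

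Markers of the liver zones were read as lists of their own, though they share genes with those above. Beside their counts stand the 6.09% of all genes called lower, the 1.64% called higher and the 23.6% at an unadjusted p under 0.05. Of 10 pericentral markers, 5 were called lower, of which *Glul*, *Oat*, *Slc1a2* and *Rhbg* are the calls already given and *Cyp2e1* is the further one, and the summed level of all 10 was 4209 to 5462 FPKM in WT and 2798 to 3338 FPKM in TRIM24-C52/55A livers. Most of that sum was *Cyp2e1*, with 3033 to 3927 FPKM in WT and 2145 to 2544 FPKM in TRIM24-C52/55A livers. *Cyp1a2*, another pericentral marker, was not called and had a log2 fold change of 0.35, with every TRIM24-C52/55A liver above every WT liver, and *Axin2* had 0.10 with overlapping groups. The number called was 3 with median-of-ratios scaling, without TRIM24-C52/55A replicate 1 or 2 or without any 1 of the WT libraries, and 2 with no filter on low values. Of 11 periportal markers, *Cyp2f2* (log2 fold change 0.66) and *Cdh1* (1.26) rose, *Hsd17b13* and *Aldh1b1* fell, and the summed level was 2596 to 2737 FPKM in WT and 2383 to 3194 FPKM in TRIM24-C52/55A livers. After median-of-ratios scaling or quantile normalization 3 periportal markers were called higher and 0 lower, and without TRIM24-C52/55A replicate 2 there were 1 higher and 2 lower. The call of *Cyp2f2* held in all 15 alternatives, and those of *Cdh1*, *Hsd17b13* and *Aldh1b1* were lost in 8, 10 and 11. The part of the zone markers in the change of *Cps1* was not tested. Of 5 hepatocyte markers listed (*Apoh*, *Hnf4a*, *Apoa1*, *Fgb* and *Ttr*) limma called 0, with 1 at an unadjusted p under 0.05, and their summed level was 14045 to 14723 FPKM in WT and 13595 to 16081 FPKM in TRIM24-C52/55A livers. Of 8 Kupffer cell and macrophage, 6 stellate, 4 cholangiocyte and 5 neutrophil and blood markers tested, limma called 0 in each list, with 2, 3, 3 and 4 at an unadjusted p under 0.05, beside the 23.6% of all genes. All 8 Kupffer cell and macrophage markers had log2 fold changes below 0. Of the 6 stellate markers, 4 were above 0 and 2 below (median 0.08). *Lrat* (0.31) and *Reln* (0.24) were higher in every TRIM24-C52/55A liver than in every WT liver, without a call. Of the 5 neutrophil and blood markers, 4 were below 0 (median -0.71), among them the globins *Hbb-bs* (-0.82) and *Hba-a1* (-0.90). *Alas2* alone was above 0 (0.48), and its interval of 124 kb, against 23.3 kb for the gene, was shared with *Apex2* and *Pfkfb1*. Without TRIM24-C52/55A replicate 2, 2 Kupffer cell and macrophage markers (*Csf1r* and *Cd68*) and 2 stellate markers (*Col1a1* and *Col3a1*) were called lower and 1 blood marker (*Alas2*) higher. Array weights gave 2 stellate markers lower and 1 neutrophil and blood marker higher, quantile normalization gave 1 neutrophil and blood marker higher, and leaving out TRIM24-C52/55A replicate 3 gave 1 lower. The part of these markers in the results was not tested. Of 6 endothelial markers 1 (*Lyve1*) was called lower, a call lost in 6 of 15 alternatives. Of 8 adipocyte markers 1 (*Adrb3*) was higher, with 1.99 to 2.17 FPKM in WT and 7.81, 12.4 and 10.6 FPKM in TRIM24-C52/55A livers. In TRIM24-C52/55A replicates 1 and 3 *Adipoq*, *Plin1* and *Lep* were at 0, so *Adrb3* did not follow them. Without TRIM24-C52/55A replicate 2, where 5 were tested, *Cfd* was called lower as well. With TPM, array weights, the replicate block or without WT replicate 2, 1 adipocyte marker was called lower too. Of the pancreas and gut markers *Fabp2* alone was tested, and it was lower, with 162 to 166 FPKM in WT and 58.6 to 85.8 FPKM in TRIM24-C52/55A livers. *Cpa1*, *Cela2a* and *Vil1* were at no more than 0.428 FPKM in any library, so *Fabp2* is not read as a marker of those tissues here.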

How the data were processed

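RNA of mouse liver was sequenced in 6 libraries, and the authors deposited a table of FPKM for each that lists only genes above 0. The submitters' processing notes name bcl2fastq, Salmon 0.14.0, DESeq2 1.30.0 and the build GRCm38, with no role or order; the annotation is not given in the sources used here. Genes absent from a table were set to 0. FPKM keep no total count, so precision comes from the 3 libraries per group. Tests were run on log2(FPKM + 1) of genes whose mean reached 0.5 FPKM, by limma 3.58.1 under R 4.3.3 (lmFit, eBayes with a trend) and Benjamini-Hochberg adjustment over 12225 genes, and single genes by an exact permutation test (scipy 1.17.1). Same-numbered libraries were not treated as pairs. The test was tried on simulated data.

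Tables and plots were made with matplotlib 3.10.9, numpy 2.4.6 and pandas 2.3.3 (Python 3.11.15). The members and gene lists were chosen with earlier results of these data known. All members described are named; of each related list, the genes called (at most 8) or else the 2 with the largest change, with *Glul*, *Gls2*, *Glud1*, *Got2*, *Gpt2* and *Slc25a12*; and the 3 genes most like *Cps1*. *Hal*, *Slc14a1*, the uncalled regulators, the ratios, the motifs and the zonal and cell type genes named were chosen after their values were seen. The 15 alternatives were pseudocount 0.1, no filter, a mean of at least 1 FPKM, TPM (rescaled to the mean FPKM total), median-of-ratios scaling, quantile normalization, no trend, array weights, the replicate block and each library left out. Of the markers fixed, *Alb*, *Tf*, *Prss2*, *Pnlip* and *Lct* were not analysed here. Also not reported here are 1 of the 10 genes looked up and a few genes of the related lists, and counts, medians and sums leave them out.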

Additional observations from a re-analysis of the deposited data

How the results depend on the processing

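Of 15 alternatives, *Cps1* kept its direction in each (log2 fold change 0.51 to 0.76, adjusted p 0.0126 to 0.0988 from limma) and was called in 9. The number of the 9 genes called was 0 with no filter on low values (limma, 3 at an unadjusted p under 0.05, beside 16.0% of all genes), where the genes tested rose in number, and 0 to 1 with a library left out. The number of all genes called was 347 with no filter, 1552 with TPM and 294 to 1280 with a library left out, the lowest without TRIM24-C52/55A replicate 1 and the highest without TRIM24-C52/55A replicate 2. The median log2 fold change of the 9 genes was -0.08 with median-of-ratios scaling and -0.06 with quantile normalization, and -0.27 to -0.09 with a library left out. Groups did not overlap for 3 of the 9 genes as deposited (28.9% of all genes tested), 5 with TPM (34.7%), 1 with median-of-ratios scaling (26.3%), 2 with quantile normalization (25.8%) and 3 to 7 with a library left out (35.0 to 47.2% of all genes). The summed FPKM of the TRIM24-C52/55A livers over that of WT was 1.01 as deposited, 0.967 with TPM and 1.09 with median-of-ratios scaling. The sign turned for *Otc* (-0.03 to 0.03 with a library left out) with median-of-ratios scaling (0.10), quantile normalization (0.14), array weights (0.01) and without TRIM24-C52/55A replicate 2 (0.03), for *Ass1* (-0.14 to 0.01) with median-of-ratios scaling (0.05) and without TRIM24-C52/55A replicate 1 (0.01), and for *Nags* (-0.17 to 0.00) with median-of-ratios scaling (0.03), quantile normalization (0.07) and without TRIM24-C52/55A replicate 3 (0.00). The cause was not tested.

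Same-numbered libraries did not deviate together (correlations -0.123, -0.0988 and 0.00267 across genes), and 0 of 6 libraries correlated best with its own number. With the replicate block the number of all genes called was 578 against 944, 1 of the 9 genes was called (*Cps1*, adjusted p = 0.0426 from limma), and the median was -0.19. With 3 libraries per group and no counts, depth per gene is unknown, and precision is that of the intervals given.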
